A study of Sus scrofa with 48 samples.

Results

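Expression of 52 genes named for mitochondrial and peroxisomal fatty acid oxidation was described in perirenal adipose tissue (PRAT), the visceral fat around the kidney, of 48 pigs. The genes were chosen by a rule on names, set with earlier results of these data known. The rule took all probes whose gene name starts with ACAD, ACOX, ACAA, ACSL, CPT1, CPT2, HADH, ECH, ETF, DECR or PEX and a digit. It also took DCI, EHHADH and HSD17B4, and all names were matched in upper and lower case alike. This gave 142 of the 60305 probes on the array, and 52 of its 11182 gene names found in the reference tables. Each gene was represented by its brightest probe. The accession of 77 of the 142 probes was in the RefSeq gene table, and all 77 carried the same symbol there.

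The pigs were Large White barrows, 132 days old, of a line selected for low residual feed intake (low RFI, the more feed-efficient animals) or of one selected for high RFI. Within each line, 12 pigs ate a high-fat high-fiber diet (HF) and 12 a low-fat high-starch diet (LF, also low in fiber), so that each diet and each line had 24 pigs. Oils and wheat straw took the place of part of the cereal starch in the HF diet, at equal energy and similar protein per kg of feed. The paper reports that HF pigs ate less, were lighter at the end and had a smaller share of perirenal fat. Effects of fat, fiber, starch, feed intake and fatness cannot be told apart. Each pig had its own one-colour array, and values are log2 of the signal of a probe minus the median of that array. A difference of 0 means no change relative to the median probe.

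Fatty acids are activated to acyl-CoA by acyl-CoA synthetases, and the carnitine shuttle carries long chains into mitochondria, where repeated rounds of dehydrogenation, hydration, a second dehydrogenation and thiolysis release acetyl-CoA and pass electrons to the respiratory chain. Peroxisomes shorten very long and branched chains with their own oxidases and multifunctional enzymes, and depend on peroxins to be formed and to import those enzymes. White fat is best known for storing and releasing fatty acids, and oxidizes fewer of them than muscle or liver.

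The array reads each gene through single-stranded DNA probes of 60 bases. The following probes, printed 5′ to 3′ as the scanner files hold them, stand for genes that fell at every tested probe (ECHDC1, EHHADH, ECHS1 and ETFA) and for a gene that rose at its brightest probe (PEX6).
ECHDC1: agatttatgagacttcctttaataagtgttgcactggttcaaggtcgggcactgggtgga
EHHADH: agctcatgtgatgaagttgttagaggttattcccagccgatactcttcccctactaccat
ECHS1: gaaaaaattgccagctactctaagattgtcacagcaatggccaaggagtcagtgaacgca
ETFA: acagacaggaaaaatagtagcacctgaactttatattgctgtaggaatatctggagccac
PEX6: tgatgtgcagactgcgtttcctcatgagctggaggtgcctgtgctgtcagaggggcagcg
At these probes the log2 difference, HF minus LF, was -0.75 for ECHDC1, -0.33 for EHHADH, -0.45 for ECHS1, -0.29 for ETFA and 0.20 for PEX6. Each difference came with a Benjamini-Hochberg (BH) adjusted p of at most 0.0010 in limma, a linear model that shares the spread over all probes. The ECHDC1, ECHS1 and ETFA probes printed here are not the brightest of their genes. The brightest, used in all counts of genes, gave -0.73, -0.31 and -0.31.

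The CPT1 genes are close relatives, and a probe of CPT1A and a probe of CPT1C align without gaps. The 2 probes are shown because their letters can be set against each other; capitals mark the 40 of 60 bases (66.7%) that are identical.
CPT1A: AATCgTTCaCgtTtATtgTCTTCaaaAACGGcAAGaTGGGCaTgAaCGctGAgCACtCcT
CPT1C: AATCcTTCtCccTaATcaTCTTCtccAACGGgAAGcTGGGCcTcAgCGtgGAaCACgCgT
Neither of these probes was called by diet. The log2 difference was 0.08 ± 0.07 (SE; BH p = 0.403 in limma) for CPT1A and -0.12 ± 0.08 (BH p = 0.251) for CPT1C.

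The HF diet went with lower expression of 17 of the 51 oxidation genes tested and with higher expression of 4. Of the 17 falls, 9 lay among 19 peroxisomal enzymes and peroxins, 5 among 24 genes of the mitochondrial steps and 3 among 4 that only share a name. The mitochondrial share was close to that of all named genes called lower, given below. The 3 forms of carnitine palmitoyltransferase 1, the entry step of the shuttle, all rose at their brightest probes. With the mean of all tested probes of each gene, only CPT1A of the 3 stayed called. A gene was called when the raw p was under 0.01, the fold change over 1.1 and the BH p under 0.08 in limma over the 40509 probes tested. In the background of 8952 named genes, 25.4% were called by diet, 19.2% lower and 6.22% higher in HF, and the members' shares were 41.2%, 33.3% and 7.84%. The median log2 difference was -0.11 over the members and -0.05 over all named genes, and 38 of 51 members and 63.5% of all genes lay below 0. PEX5L, a relative of PEX5 found mainly in brain, was above background on 3 of 48 arrays and was not tested.

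The scaling of the arrays bears on these counts. Over all probes, 62.8% of diet calls were lower in HF, against 50.2% with arrays centred on the 75th percentile, 48.2% after quantile normalization and 15.1% with arrays centred on spike-in controls, which moved the median difference over all probes by 0.11. Centred on spike-in controls, 6 members were called lower (ETFA, EHHADH, HSD17B4, PEX13, ECHDC1 and ECHDC2) and 6 higher (CPT1A, CPT1B, CPT1C, PEX6, PEX14 and ACSL5). Over the 40509 probes tested, 1696 were then called lower and 9538 higher. The member median was then -0.01, against 0.08 over all probes.

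**Figure D1:**
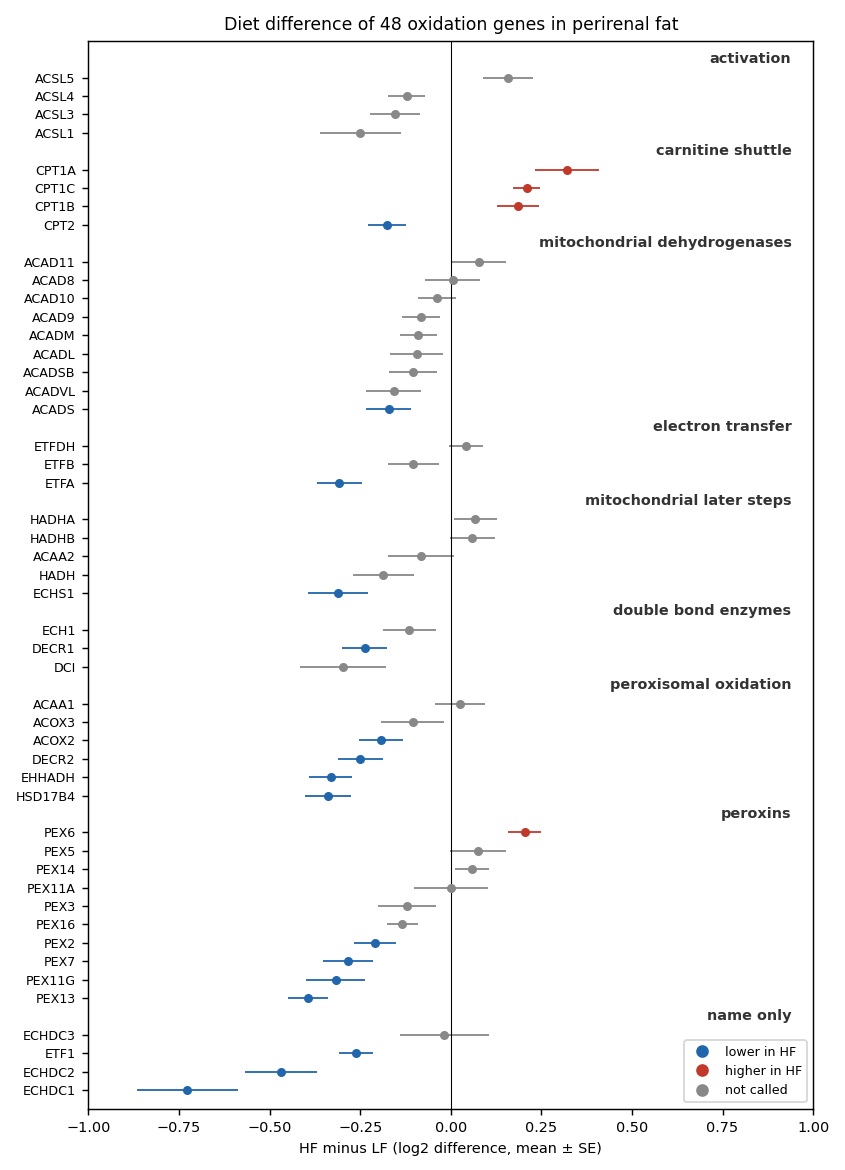
Log2 difference, HF minus LF, of the brightest probe of 48 of the 51 genes, grouped by role, with SE from limma (24 pigs per diet). Blue genes were called lower in HF (16), red genes higher (4) and grey genes were not called (28). The CPT1 genes stand to the right of 0 and most peroxisomal genes to the left.

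Activation was represented by the long-chain acyl-CoA synthetases ACSL1, ACSL3, ACSL4 and ACSL5, and none of the 4 was called at its brightest probe. Another ACSL3 probe was called lower in HF, at -0.21 (limma BH p = 0.014), against -0.15 at the brightest. ACSL1, the main form of fat cells, had log2 values of 7.96, 8.66 and 9.63 (lowest, median and highest) in HF and 7.88, 8.95 and 9.58 in LF, and the groups overlapped over nearly their whole range. Its difference was -0.25 ± 0.11 (SE, n = 24 per diet; limma raw p = 0.030, BH p = 0.081), which missed both limits, and all 4 of its probes lay between -0.29 and -0.20. ACSL5 had the opposite sign, at 0.16 (BH p = 0.072), and its raw p missed the limit.

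All 4 carnitine palmitoyltransferases were called by diet. Other genes of the carnitine system, on the list of related genes, were not: the carrier SLC25A20 had a difference of 0.05, and the acyltransferases CRAT and CROT had -0.06 and -0.08 (limma BH p = 0.622, 0.463 and 0.664). CPT1A, the liver form of the enzyme that transfers long-chain acyl groups to carnitine, ranged from 4.56 over 5.22 to 5.86 in HF and from 4.04 over 4.79 to 5.38 in LF. The HF values were shifted upwards with wide overlap, and 20 of 24 HF pigs lay above the LF mean. The difference was 0.32 ± 0.09 (SE; 1.25-fold; limma BH p = 0.0053), positive on each of the 6 slides, and 3 of its 5 tested probes were called. CPT1B, the muscle form, had values of 0.35, 0.61 and 1.17 in HF against 0.08, 0.46 and 0.82 in LF, a difference of 0.18 ± 0.06 (limma BH p = 0.013). The other 3 CPT1B probes were not called, and one of them had the opposite sign, so that the mean of its probes gave 0.08, which was not called. CPT1C, a form known mainly from neurons, rose by 0.21 ± 0.04 (limma BH p = 5.2e-05) at its brightest probe. The mean of its 2 probes was 0.04 and was not called, since the probe shown above had the other sign. CPT2, which moves the acyl group back to CoA inside the mitochondrion, went the other way. It ranged from 1.84 over 2.23 to 2.53 in HF and from 1.97 over 2.40 to 2.88 in LF, and fell by 0.18 ± 0.05 (limma BH p = 0.0096) at both of its probes.

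Among the 9 acyl-CoA dehydrogenases, which open each round, 1 was called. ACADS, the short-chain enzyme, had values of 6.24, 6.65 and 6.93 in HF and 6.19, 6.89 and 7.15 in LF, a difference of -0.17 ± 0.06 (limma BH p = 0.033). Its raw p sat at the limit, since the call was lost in 28 of the 48 fits that each left out 1 array. The very-long-chain enzyme ACADVL ranged from 4.07 over 4.49 to 4.98 in HF and from 4.06 over 4.66 to 5.10 in LF, with a difference of -0.16 ± 0.08 (limma BH p = 0.105). The long-chain enzyme ACADL had values of 5.10, 5.76 and 6.16 in HF against 5.09, 5.90 and 6.36 in LF. ACADM, for medium chains, had 4.26, 4.57 and 4.95 in HF against 4.26, 4.71 and 5.02 in LF. The differences of ACADL and ACADM were -0.09 each (limma BH p = 0.339 and 0.175), and none of the 7 and 8 probes tested was called. The 5 others, ACADSB, ACAD8, ACAD9, ACAD10 and ACAD11, lay between -0.10 and 0.08.

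Electrons leave the dehydrogenases through the electron transfer flavoprotein, made of ETFA and ETFB, and through its dehydrogenase ETFDH. ETFA ranged from 4.83 over 5.21 to 5.76 in HF and from 4.95 over 5.60 to 5.85 in LF, and 23 of 24 HF values were under the mean of LF. The subunit fell by 0.31 ± 0.06 (SE; 1.24-fold; limma BH p = 0.00025), and all 9 of its probes were called lower, with differences from -0.31 to -0.20. Its partner ETFB had a difference of -0.10 ± 0.07 (limma BH p = 0.266). ETFDH had values of 3.51, 3.76 and 4.10 in HF and 3.40, 3.77 and 4.06 in LF, a difference of 0.04 ± 0.05 (limma BH p = 0.507). The differences among the subunits were not tested against each other.

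The later mitochondrial steps were led by ECHS1, the short-chain enoyl-CoA hydratase. Its values were 8.62, 9.12 and 9.63 in HF and 8.78, 9.47 and 9.94 in LF, overlapping but lower in HF on each of the 6 slides. The difference was -0.31 ± 0.08 (SE; limma BH p = 0.0035), and all 4 probes were called lower, down to -0.49. HADHA and HADHB, the subunits of the mitochondrial trifunctional protein that handles long chains, were not called. HADHA ranged from 3.92 over 4.20 to 4.55 in HF and from 3.66 over 4.16 to 4.48 in LF, and HADHB from 5.80 over 6.17 to 6.55 and from 5.67 over 6.19 to 6.46. Their differences were 0.07 ± 0.06 and 0.06 ± 0.06 (limma BH p = 0.400 and 0.485). HADH, the hydroxyacyl-CoA dehydrogenase for shorter chains, had values of 6.33, 7.28 and 7.67 in HF against 6.71, 7.36 and 7.64 in LF. Its difference of -0.19 ± 0.08 (limma BH p = 0.084) was not called at the brightest probe, but 1 of its 3 probes was. ACAA2, the thiolase, had values of 5.06, 5.42 and 6.20 in HF and 4.99, 5.52 and 6.24 in LF, and differed by -0.08 ± 0.09 (limma BH p = 0.516).

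Unsaturated chains need extra enzymes that move or reduce double bonds. DECR1, the mitochondrial dienoyl-CoA reductase, ranged from 3.12 over 3.59 to 4.05 in HF and from 3.51 over 3.81 to 4.19 in LF. It fell by 0.24 ± 0.06 (SE; limma BH p = 0.0037), and 3 of 4 probes were called. DCI, the enoyl-CoA isomerase now named ECI1, had values of 2.85, 3.78 and 4.61 in HF and 3.07, 4.11 and 4.82 in LF. Its difference was of similar size, at -0.30, but its error was 0.12 and it was not called (limma raw p = 0.016, BH p = 0.052). DCI was called in some alternative fits, array weights among them. ECH1, an isomerase of dienoyl-CoA, had a difference of -0.11 (limma BH p = 0.237).

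**Figure D2:**
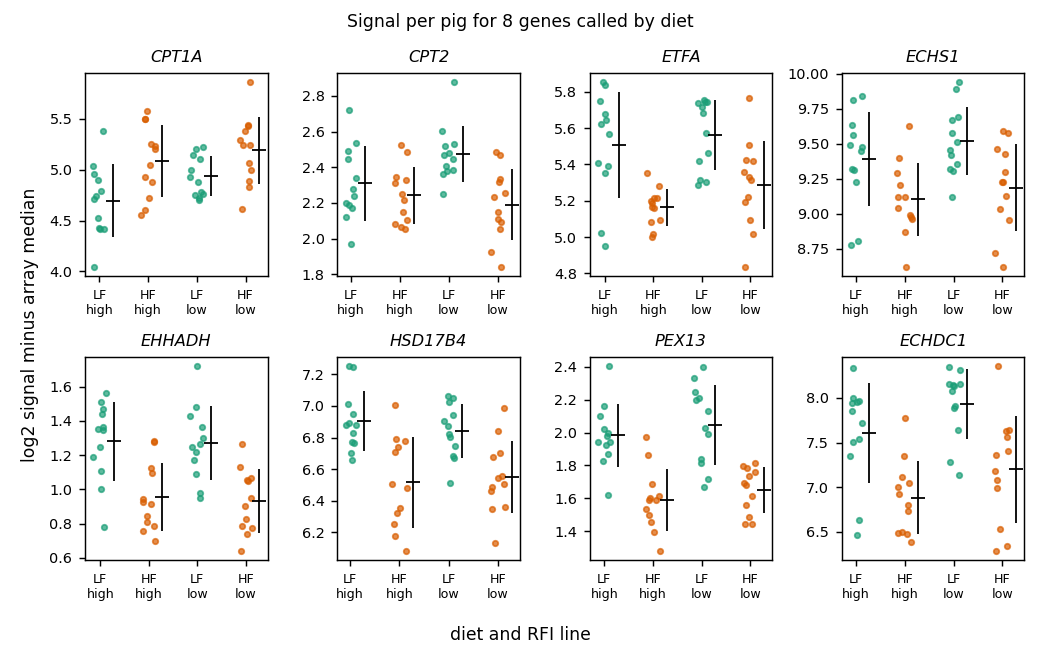
Log2 signal minus array median of 8 genes called by diet, 1 point per pig, with the mean and SD of each group of 12 beside the points; green is LF and orange HF, for the high and low RFI lines. Every gene but CPT1A sits lower in HF within both lines, and all groups overlap.

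Of the 7 genes of peroxisomal oxidation, 4 fell and none rose. HSD17B4, the multifunctional enzyme for branched and very long chains, ranged from 6.09 over 6.51 to 7.01 in HF and from 6.51 over 6.88 to 7.25 in LF, so that the lowest LF value lay at the HF median. It fell by 0.34 ± 0.06 (SE; 1.27-fold; limma BH p = 8.95e-05) at the brightest probe and was called at 2 of 3 probes. The third gave -0.01. EHHADH, the other peroxisomal multifunctional enzyme, had values of 0.64, 0.92 and 1.28 in HF and 0.78, 1.28 and 1.72 in LF, and the mean of LF was above 23 of 24 HF values. It fell by 0.33 ± 0.06 (1.26-fold; limma BH p = 4.9e-05), at both of its probes. DECR2, the peroxisomal dienoyl-CoA reductase, fell by 0.25 ± 0.06, and ACOX2, the oxidase for branched chains and bile acid precursors, by 0.19 ± 0.06 (limma BH p = 0.0021 and 0.014). ACAA1, the peroxisomal thiolase, ranged from 8.63 over 9.22 to 9.57 in HF and from 8.63 over 9.22 to 9.66 in LF, with a difference of 0.02 ± 0.07 (limma BH p = 0.816). ACOX3 had a difference of -0.11 (limma BH p = 0.364).

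Of the 12 peroxins, 5 fell and 1 rose. PEX13, a membrane protein of the import pore, was tested at 1 probe, since the other was above background on 6 of 48 arrays. It gave the smallest adjusted p of all members. Its values were 1.28, 1.61 and 1.97 in HF and 1.62, 1.99 and 2.41 in LF, and each of the 24 HF values was under the mean of LF. It fell by 0.39 ± 0.06 (SE; 1.31-fold; limma BH p = 1.4e-06). PEX11G, of the family that divides peroxisomes, ranged from -0.09 over 0.43 to 1.1 in HF and from 0.26 over 0.81 to 1.19 in LF, and fell by 0.32 ± 0.08 (limma BH p = 0.0023). PEX7, the receptor that brings in phytanoyl-CoA hydroxylase and thiolase, ranged from 0.03 over 0.42 to 0.95 in HF and from 0.25 over 0.76 to 1.14 in LF. It fell by 0.28 ± 0.07 (limma BH p = 0.0015). PEX2, a ubiquitin ligase of the import machinery, fell by 0.21. PEX16, which helps to place membrane proteins, had a difference of -0.13 (limma BH p = 0.014) and missed only the limit on the fold.

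PEX5, the main import receptor, was not called. It ranged from 4.33 over 4.66 to 5.13 in HF and from 4.08 over 4.61 to 5.09 in LF, with a difference of 0.08 ± 0.08 (limma BH p = 0.478). PEX6, an ATPase that recycles PEX5, rose by 0.20 ± 0.05 (limma BH p = 0.00068) at the probe printed above, but its second probe had a difference of -0.18, and the direction depends on the probe. The mean of the pair was 0.01. PEX14 had a difference of 0.06, PEX3 one of -0.12 and PEX11A one of -0.00018 with an SE of 0.10.

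Genes that entered through the letters of their names alone were led by ECHDC1, which encodes ethylmalonyl-CoA decarboxylase, an enzyme that clears a side product of fatty acid synthesis. It had the largest diet difference of the 51 genes. Its values were 6.29, 7.03 and 8.36 in HF and 6.46, 7.92 and 8.34 in LF, wide in both diets, with 22 of 24 HF values under the mean of LF. It fell by 0.73 ± 0.14 (SE; 1.66-fold; limma BH p = 0.00011), and its second probe gave -0.75. ECHDC2, an enoyl-CoA hydratase domain protein, ranged from 3.91 over 4.42 to 4.89 in HF and from 3.98 over 4.89 to 5.74 in LF, and fell by 0.47 ± 0.10 (limma BH p = 0.00035). ETF1, a translation release factor and no enzyme of oxidation, fell by 0.26 ± 0.05 (limma BH p = 4.9e-05). Without ETF1, 16 members fell. ECHDC3 had a difference of -0.02 (limma BH p = 0.925).

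Probes of a gene mostly moved together. Of the 135 member probes tested, 40 were called lower and 6 higher in HF, against 15.3% and 9.04% of all 40509 probes. Probes of 1 gene share their target and are not independent. All tested probes had the same sign for ETFA, ECHS1, ACADL, ACADM and HADHA, and opposite signs occurred for ACSL4, CPT1B, CPT1C, ACAD8 and PEX6, among others. The 3 of 5 tested CPT1A probes that were called lay at 0.31 to 0.33, and the other 2 at 0.08 and 0.13.

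**Figure D3:**
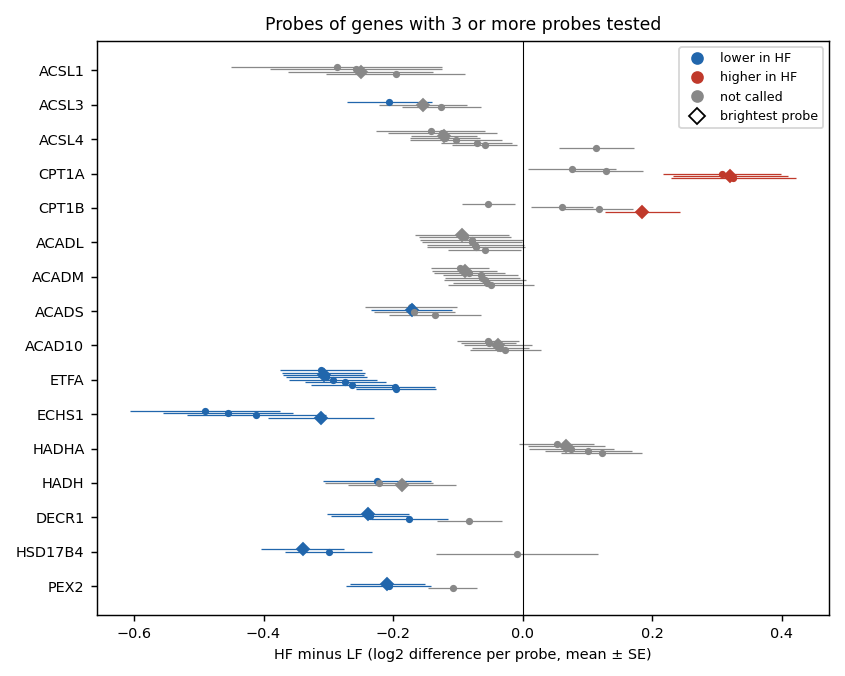
Log2 difference, HF minus LF, with SE from limma for each tested probe of 16 genes with 3 or more probes (79 probes); diamonds are the brightest probe of each gene and colours give the call. The 9 ETFA probes and the 4 ECHS1 probes are all blue, while the third HSD17B4 probe lies at 0.

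Diet differences had the same sign within both lines for all 21 called members. The calls were made on the mean over both lines, which favours equal signs, so this is no separate test. No member passed the test of the interaction between diet and line. Over all probes 0 of 40509 were called in limma, with 2.23% of probes and 2.07% of named genes at a raw p under 0.05. Among the members only CPT2 had a raw interaction p under 0.05, at 0.042 (not called by limma), with a diet difference of -0.29 ± 0.07 in the low RFI line and -0.07 ± 0.07 in the high RFI line. In PEX13 the differences were -0.40 and -0.39, and in ECHDC1 -0.73 and -0.72. In ECHDC2 they were -0.62 and -0.32 (raw interaction p = 0.137 in limma).

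**Figure D4:**
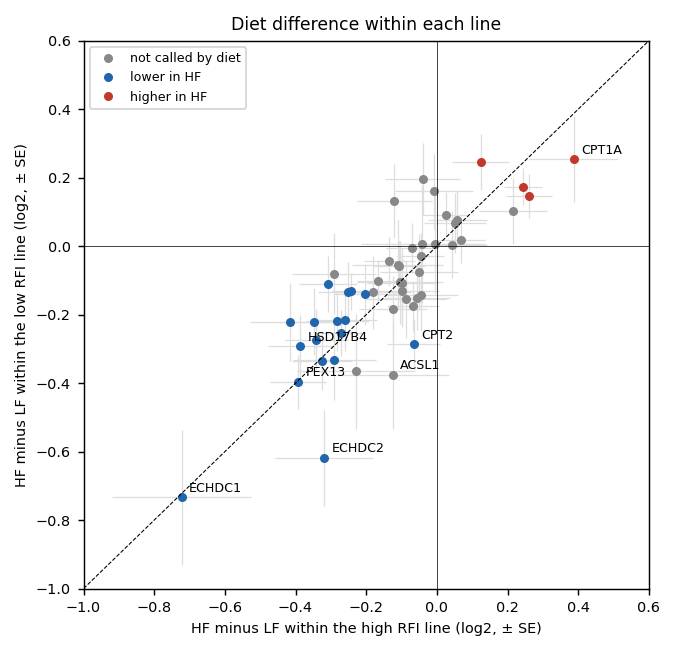
Diet difference (log2, HF minus LF, with SE) within the low RFI line against that within the high RFI line, for 51 genes; the dashed line marks equal differences. CPT2 and ECHDC2 lie below the dashed line, and PEX13 and ECHDC1 on it.

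The lines differed far less than the diets. Called by line were 3 of the 51 members (5.88%) against 3.26% of the 8952 named genes in limma. The call was higher in low RFI for 2 members (1.79% of named genes) and lower for 1 (1.47%). These counts rest on the brightest probe of each gene. A second probe of PEX6 was called higher in low RFI, by 0.27 ± 0.07 (SE; limma BH p = 0.021). The brightest PEX6 probe had -0.09 and was not called (limma BH p = 0.390). ECHDC2 ranged from 4.11 over 4.73 to 5.74 in low RFI and from 3.91 over 4.28 to 5.24 in high RFI pigs, and was higher in low RFI on each of the 6 slides. It was 0.43 ± 0.10 higher (SE, n = 24 per line; limma BH p = 0.0063). PEX11G had values of 0.04, 0.80 and 1.19 in low RFI against -0.09, 0.44 and 0.93 in high RFI, a difference of 0.26 ± 0.08 (limma BH p = 0.064). ECHDC3, an enoyl-CoA hydratase domain protein, ranged from -0.03 over 1.60 to 2.62 in low RFI and from 1.42 over 1.95 to 2.48 in high RFI, a difference of -0.39 ± 0.12 (limma BH p = 0.071). The PEX11G and ECHDC3 calls were lost in 18 and 26 of the 48 fits that left out 1 array, and without the pig with the lowest ECHDC3 value (LF, low RFI, replicate 11) that difference was -0.32 (limma BH p = 0.083). ECHDC2 was called in all 48. No enzyme of the mitochondrial spiral and none of peroxisomal oxidation was called by line.

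**Figure D5:**
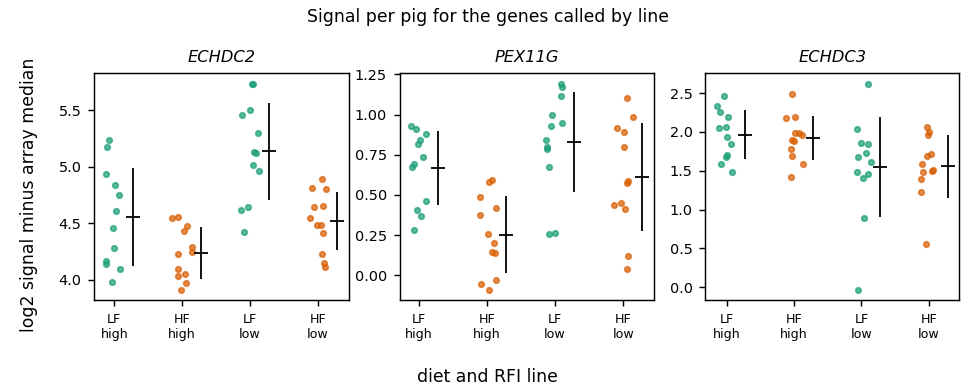
Log2 signal minus array median of the 3 genes called by line, 1 point per pig, with the mean and SD of each group of 12; green is LF and orange HF, for the high and low RFI lines. ECHDC2 and PEX11G sit higher in low RFI pigs, and ECHDC3 lower, with 1 low RFI pig at -0.03.

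Around the pathway, 33 of 41 listed genes of fatty acid transport, peroxisomal side reactions, ketone bodies and control were tested, and 11 were called lower and 4 higher in HF, against 19.2% and 6.22% of all named genes. The largest rise was that of PDK4, the kinase that turns off pyruvate dehydrogenase and so spares glucose, from a median of 5.21 in LF to 5.98 in HF, a difference of 0.83 ± 0.23 (SE; limma BH p = 0.0063). PPARA, the nuclear receptor that drives oxidation genes in liver, differed by 0.53 ± 0.18 (limma BH p = 0.023), but of its 3 tested probes 1 was called higher and 1 lower, and their mean of 0.13 was not called. UCP2, a mitochondrial carrier, rose by 0.45 ± 0.14 (limma BH p = 0.013) at its brightest probe, and 1 of its 2 tested probes was called. PHYH, which opens the alpha-oxidation of phytanic acid in peroxisomes, fell by 0.51 ± 0.11 (limma BH p = 0.00029). PECI and ECI2 are older and newer names of 1 peroxisomal isomerase, and both probes fell, by 0.28 and 0.34, so that the 11 count this gene 2 times.

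By line, 5 of these 33 genes were called, all higher in low RFI pigs, against 3.26% of named genes called and 1.79% called higher. PHYH had a mean of 7.5 in low RFI and 6.62 in high RFI, a difference of 0.87 ± 0.11 (SE; limma BH p = 4.4e-07). ACOT4, a peroxisomal thioesterase, was higher by 0.69 ± 0.13, and ABCD2, a peroxisomal importer of very long chains, by 0.52 ± 0.12 (limma BH p = 0.00094 and 0.0064). OXCT1, which uses ketone bodies, and SCP2, the peroxisomal thiolase and sterol carrier, were higher by 0.40 and 0.21 (limma BH p = 0.011 and 0.019).

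Markers of cell types moved with diet in the same samples. Over all named genes, 19.2% were called lower and 6.22% higher in HF. In bulk tissue, fewer cells of a type and less RNA per cell cannot be told apart. Of 6 macrophage markers tested, 4 rose in HF (CD163, CSF1R, AIF1 and C1QA, by 0.36 to 0.80). The mean level of the 7 listed (CD68, not tested, included) ranged from 1.25 to 3.19 in HF and from 1.20 to 2.86 in LF. Adipocyte markers were called lower for 2 of 7 (LEP by -0.94 and CIDEC by -0.24), with the list at 8.58 to 9.11 in HF and 8.77 to 9.33 in LF, while ADIPOQ differed by 0.08 (limma BH p = 0.259). The brown fat markers CIDEA and COX7A1 fell as well, 2 of 4 tested. The mean level of the 5 on the array (ELOVL3, not tested, included) ranged from 2.03 to 2.85 in HF and from 2.51 to 2.997 in LF. No fibroblast (6 tested) or endothelial marker (5 tested) was called, but all 6 fibroblast differences were above 0, at 0.09 to 0.31. Of 5 T and NK cell markers tested, NKG7 rose by 0.31 ± 0.10 (limma BH p = 0.012), all 5 differences were above 0, and the mean level of the 6 listed (CD4, not tested, included) ranged from -0.0045 to 0.80 in HF and from -0.27 to 1.11 in LF. Of 4 kidney markers, 3 were above background on fewer than 24 arrays, while AQP2, a water channel of the collecting duct, was above it on all 48 and fell by 0.63 ± 0.13 (limma BH p = 0.00027), from 1.72 to 3.43 in HF against 2.26 to 3.98 in LF. The part of these markers in the differences above was not tested. By line, no marker was called.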

How the data were processed

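RNA of each pig was measured on a one-colour porcine array after Cy3 labelling. Spot intensity values and flags were made by the authors' scanner software (Feature Extraction 10.7.3.1) and deposited without normalization between arrays. The deposited table holds log2 values that the authors filtered and centred on array medians (R 2.10.0 per the labels); all 38142 rows matched scanner values of median signal, but 2 row names matched the probe, so names and values were taken from the scanner files. The genome build is not given in the sources used here.

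Values are log2 median signal minus the array median, without non-uniform or outlier spots. Probes that all arrays of any of the 4 groups showed well above background (40509) were fitted with limma 3.58.1 in R 4.3.3 for diet, line and interaction. The code was tested on simulated data. Probes above background numbered 38875 to 47814 per array and 0 spots were saturated. Precision is limited by the number of arrays; each of 6 slides held 2 arrays of every group. Related genes were the fixed list around the pathway; full values were given for the 10 largest called differences per effect and for core enzymes; a few genes of the lists enter the counts but are not reported by name here. Members and lists were chosen with earlier results of these data known. Alternatives were other scalings, background corrections, filters, tests, blocks, probe means and leaving out each array, the last chosen after seeing the data, like matching names by case.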

Additional observations from a re-analysis of the deposited data

How the results depend on the processing

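Across 16 alternatives, the 57 named differences kept their direction and call in 857 of 912 values. Another 47 lost the call, 22 of them with spike-in centring, 2 gained it, 6 uncalled ones changed sign and 0 called ones did. Differences not called in the main fit counted as kept when they stayed uncalled with the same sign. Slide and scan day blocks, the fit without interaction and the two-way ANOVA shifted the median diet difference by 0. BH under 0.05 left the 6185 and 3662 diet calls as they were. The alternatives are therefore not separate tests, and the share kept does not measure how firm the calls are. Members called by diet numbered 12 with spike-in centring (6 lower, 6 higher) against 21, and the mean of probes left 1 called higher. Of all 40509 probes, spike-in centring gave 1696 called lower and 9538 higher, against 6185 and 3662. Related genes called by diet were 8 with spike-in centring against 15. By line, 1 member was called with spike-in centring, without a filter on dim probes or at BH under 0.05, against 3. The cause was not tested. Leaving out each array in turn gave 20 to 25 members called by diet (16 to 20 lower, 4 to 5 higher), 1 to 3 by line, 0 by interaction, and 14 to 16 and 5 to 6 related genes by diet and line. With names matched in capitals only, 18 members were called by diet. Replicate numbers were not taken to pair the pigs, since the labels state no pairing. Of same-numbered pairs, 39 of 72 correlated over 0.1 (-0.24 to 0.50, median 0.13), against 201 of 792 pairs of other numbers (median -0.01). Pigs that share a block need not all correlate that well, so these values do not exclude pairing. Of 48 samples, 18 correlated best with their own number, a hint of shared structure whose source was not tested. With the replicate block, DCI was called, as with array weights, and 23 members were called by diet, 3 by line and 0 by interaction, and 16 and 6 related genes by diet and line. Signal over background limits what was seen of PEX5L.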
